A study of Mus musculus with 20 samples.

Results

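The regions described here are 217 liver chromatin sites whose accessibility differed between Midn-T and WT female mice. They are all the rows of the study's female differential ATAC-seq list, out of 396 rows in its female and male lists together. The peaks were chosen by the difference itself, at a false discovery rate below 0.1, so their membership and direction are descriptions and carry no test here. The list marked 150 peaks as having increased accessibility and 67 as having decreased accessibility, which makes 69.1% increased (95% Wilson interval 62.7 to 74.9).

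The series profiled RNA and open chromatin in the livers of male and female mice aged 11 to 14 weeks. The female ATAC-seq comparison used 2 WT livers, whose genotype label is Midn XTR, and 2 Midn-T livers, whose genotype label is Midn TR. In the Midn-T animals Albumin-Cre, which is driven by hepatocyte regulatory sequence of the albumin gene, inverted a gene trap within Midn, so that the trapped allele was confined by design to hepatocytes. Nuclei came from whole frozen liver, 50000 a library, and were sequenced with paired reads of 150 bp. The sources used here do not state whether the WT mice carried the Cre transgene. In the study's design Cre inverts the XTR allele irreversibly into the trapped form. The WT label Midn XTR therefore describes livers in which Cre had not acted. The sample titles of all 4 female ATAC-seq libraries, and of 5 of the 8 ATAC-seq libraries in the series, disagreed with the library name and genotype of the same record. Groups are described here by library name and genotype. The directions are those given in the list itself, and which of these labels the authors used to set them cannot be checked from it. The list gives position and direction only, with no value for any liver, so the size of a change, its error, the depth behind it and the values on either side of the threshold cannot be reported, and no alternative that leaves out a liver could be run. The number of peaks that entered the comparison is not in the list either, so the share of tested peaks that passed is not given.

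ATAC-seq marks DNA that is free enough of nucleosomes for the Tn5 transposase to cut, which in liver means promoters of active genes and enhancers held open by factors such as FOXA, C/EBP and nuclear receptors. Midnolin, the product of Midn, is a nuclear protein that carries transcription factors to the proteasome without prior ubiquitination. The glucocorticoid receptor, one of the nuclear receptors of hepatocytes, binds a palindrome known as the glucocorticoid response element (GRE), which the androgen and progesterone receptors also recognise. Many mammalian promoters lie in CpG islands, stretches rich in G, C and the dinucleotide CG. Large parts of the mouse genome are present in many near-identical copies, and short reads from such copies are hard to place.

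The decreased peaks are illustrated here by the GRE, although most of them lacked it. Its core was in 26 of the 67 decreased peaks. The SOX motif ACAAAG was in 36 of them and the nuclear receptor motif AGGTCA in 33. The sequences below are genomic stretches of the GRCm39 build, plus strand, with the GRE in capitals. Of the 67 decreased peaks, 7 contained the long form of the GRE, which is the core ACANNNTGT with further fixed bases on both sides, and all 7 are shown because they are the closest matches to the consensus. Each is named by the protein-coding gene with the nearest start site.
Mt2, chr8:94898138-94898202: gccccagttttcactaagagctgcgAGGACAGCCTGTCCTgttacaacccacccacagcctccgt
Ttpal, chr2:163438068-163438132: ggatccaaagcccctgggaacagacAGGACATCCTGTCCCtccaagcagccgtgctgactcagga
Alb, chr5:90572685-90572749: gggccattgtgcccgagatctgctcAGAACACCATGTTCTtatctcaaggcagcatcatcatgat
Zbtb16, chr9:48634978-48635042: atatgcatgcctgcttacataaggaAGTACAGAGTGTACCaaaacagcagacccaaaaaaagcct
Rhobtb1, chr10:68940529-68940593: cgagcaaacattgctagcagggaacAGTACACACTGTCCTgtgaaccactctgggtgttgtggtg
Itpr1, chr6:108434067-108434131: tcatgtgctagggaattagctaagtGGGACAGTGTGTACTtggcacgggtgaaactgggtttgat
4930562C15Rik, chr16:4647217-4647281: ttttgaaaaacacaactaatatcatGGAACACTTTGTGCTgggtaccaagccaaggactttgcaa

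The peak in an intron of Fkbp5 contained the core alone, in capitals here.
Fkbp5, chr17:28731973-28732031: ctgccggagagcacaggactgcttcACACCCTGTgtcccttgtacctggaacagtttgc

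The increased peaks showed other kinds of sequence. One was the CpG-rich promoter, shown by the 200 bases before the start site of Limk2, printed on the minus strand in the direction of the gene with every CG in capitals.
Limk2, chr11:3359175-3359374: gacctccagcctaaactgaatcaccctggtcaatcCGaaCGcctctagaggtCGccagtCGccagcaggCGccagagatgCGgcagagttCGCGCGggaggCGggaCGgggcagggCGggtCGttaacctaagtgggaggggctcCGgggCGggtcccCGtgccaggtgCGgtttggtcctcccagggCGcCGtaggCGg

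The other was sequence present in many copies. The next run of 78 bases was identical in 3 increased peaks on 3 chromosomes, at chr4:21505495-21505572 (nearest gene Prdm13), chr10:11512063-11512140 (Epm2a) and, on the minus strand, chr7:31722551-31722628 (Scgb1b10), and had 184 exact copies in the genome.
Shared run: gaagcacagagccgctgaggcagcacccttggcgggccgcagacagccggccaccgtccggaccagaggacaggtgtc

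Every listed peak was a window of 500 bp. A 31-mer was counted as repeated when it had a further exact copy anywhere in GRCm39 on either strand, and a peak as multicopy when over 50% of its 31-mers were repeated. By this measure 80 of the 150 increased peaks were multicopy (53.3%, 45.4 to 61.1) and 0 of the 67 decreased peaks were, which allows a share of up to 4.48% for the decreased set. Windows of the same length placed every 100 kb along the genome, referred to below as genome tiles, were multicopy in 14.0% of 25611 cases, so at this limit the increased share was above that of the tiles and the decreased share below it. With over 90% of 31-mers repeated the shares were 12.7% of increased peaks (8.26 to 18.9), 0 of 67 decreased peaks and 6.43% of tiles. These intervals cover counting error only, since neighbouring peaks share their sequence and all peaks share the same 4 libraries. Among the peaks that were not multicopy the list held 70 increased and 67 decreased peaks, a share of 51.1% increased.

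**Figure D1:**
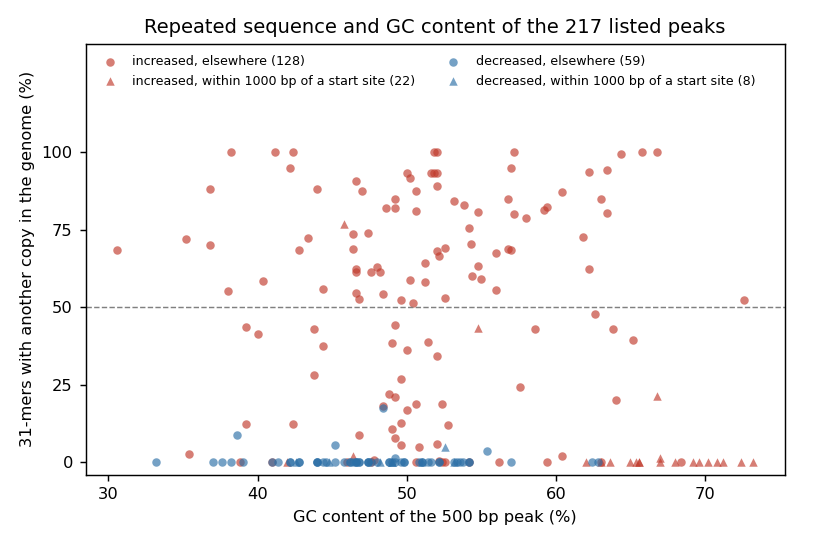
Each point is 1 of the 217 listed peaks, with its GC content in percent on the horizontal axis and the percentage of its 31-mers that have another copy in the genome on the vertical axis. Colour gives the direction, triangles mark peaks within 1000 bp of a protein-coding start site and the dashed line marks 50%; all 67 decreased peaks lie below it, whereas 80 of the 150 increased peaks lie above it, and the increased triangles gather at high GC content with few repeated 31-mers.

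Repetition at the scale of a read was rarer. At least 1 window of 150 bases, the length of a read, had another exact copy in 43 of the 150 increased peaks (28.7%), and over 50% of such windows did in 12 peaks (8%). In the decreased peaks 0 of 67 had any such window. The median 31-mer of a peak had 10 or more copies in 23 increased peaks (15.3%), against 9.29% of genome tiles, so most multicopy peaks were of low copy number. The highest values were found near Gm2012 on chromosome X, a member of a multicopy gene cluster, with a median of 9099 copies, near the NLR family gene Nlrp9c with 5508 copies and near 9030624G23Rik on chromosome 12 with 5301 copies.

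Some increased peaks on different chromosomes had stretches of sequence in common. A total of 30 increased peaks and 1 decreased peak shared at least 1 31-mer with another listed peak, and they fell into 11 groups. The peaks near Prdm13, Scgb1b10 and Epm2a, whose common run is printed above, shared between 108 and 142 31-mers by pair. A group of 4 peaks on 4 chromosomes, nearest to Pde4b, Mepe, Smo and Zfp825, shared between 22 and 80. The group with the most members joined 6 increased peaks on 6 chromosomes, nearest to Gm14496, Wls, Vmn2r87, Ccng1, Tmem196 and A630089N07Rik, by few 31-mers, with 8 between Gm14496 and Wls and 1 between Wls and Ccng1. No repeat annotation was used, so whether a group is 1 kind of element was not tested. The decreased peak in such a pair was 1 of the peaks at Retreg1, which shared 2 31-mers with a peak near Gm5591. Peaks that share sequence are not separate observations of sequence content.

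The increased peaks were also unevenly placed along the chromosomes. Chromosome X held 20 increased peaks and 1 decreased peak, so that 13.3% of increased peaks lay on a chromosome with 6.41% of the bases, while the decreased share was 1.49%. The male list, which shares no library with the female list, had 1 of its 179 peaks there. It was chosen at a raw P below 0.05 and from the other sex, so these counts on a sex chromosome are not like for like. Of the 20 increased X-linked peaks 13 were multicopy, and their nearest genes included the germ cell genes Slx, Ssxb3 and Btbd35f29. The decreased X-linked peak lay in an intron of F9, which encodes coagulation factor IX. Chromosome 12 held 18 increased and 2 decreased peaks, with 4.56% of the bases. In 18 increased peaks (12%) the position was within the first 1 Mb of assembled sequence of a chromosome, against 0 of the 67 decreased peaks and 0.773% of genome tiles. Mouse chromosomes have their centromere at this end. The 5 increased peaks nearest Sfi1, which encodes a centrin-binding protein of the centrosome, and the 4 nearest the olfactory receptor gene Or1f19 all lay in this stretch, as did the peak at Limk2. Counted as loci, with peaks within 10 kb of each other merged, the 150 increased peaks made 143 loci and the 67 decreased peaks 65, a share of 68.8% increased.

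**Figure D2:**
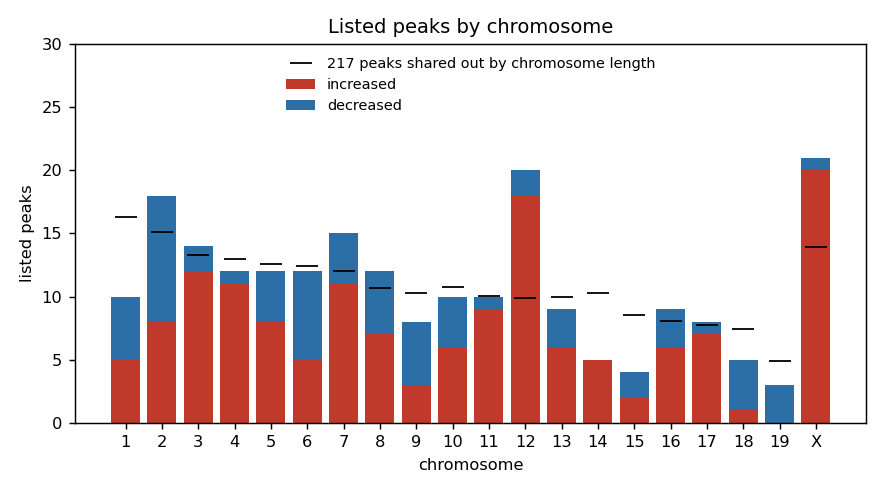
Bars count the listed peaks on each chromosome, increased peaks below and decreased peaks stacked above them, and the black marks show 217 peaks shared out by chromosome length. Chromosomes X and 12 carry 21 and 20 peaks, most of them increased, and chromosomes 14 to 19 carry 9 peaks or fewer.

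Both sets lay mostly away from protein-coding start sites. Within 1000 bp of such a site were 22 increased peaks (14.7%, 9.89 to 21.2) and 8 decreased peaks (11.9%), against 2.63% of genome tiles. The median distance was 39.2 kb in the increased set and 19.1 kb in the decreased set, and 56.3 kb for genome tiles. With start sites of all annotated genes the order of the promoter shares turned, to 25.3% of increased and 28.4% of decreased peaks beside 8.70% of tiles, and the medians were 6.48, 2.7 and 11.3 kb. Over 100 kb from any start site were 45 increased peaks (30%) and 10 decreased peaks (14.9%). By annotation 77 of the 150 increased peak middles were intergenic, 32 lay in introns and 27 in non-coding genes. Of the 67 decreased peaks 29 lay in introns, 21 in non-coding genes and 14 were intergenic. With exons included, 53 of 67 decreased peaks (79.1%) and 73 of 150 increased peaks (48.7%) lay inside an annotated gene.

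**Figure D3:**
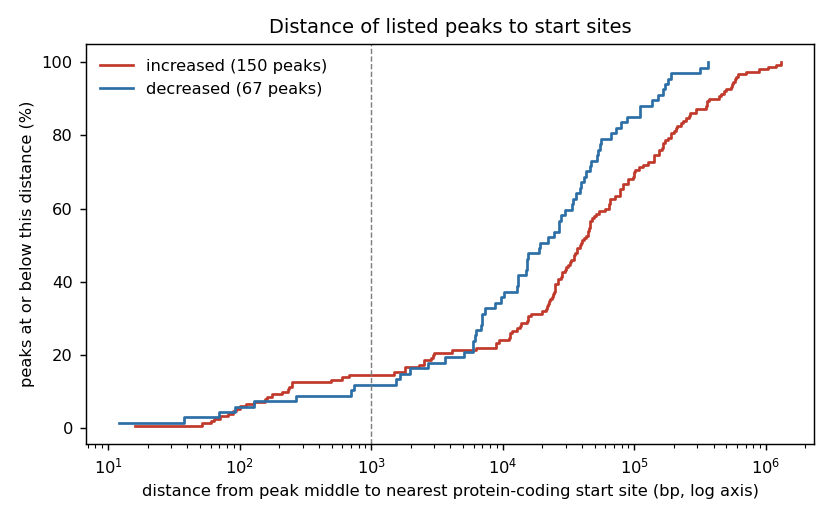
Cumulative share of listed peaks, in percent, against the distance from the peak middle to the nearest protein-coding start site in bp on a log axis, with a dashed line at 1000 bp. The curves run together up to a few kb, with 14.7% of increased and 11.9% of decreased peaks within 1000 bp, and then separate, with medians of 39.2 kb and 19.1 kb.

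At promoters the 2 directions differed in base composition. A peak was taken as CpG-island-like when its GC content was over 50% and its CG count over 0.6 of that expected from its C and G content. Of the 22 increased promoter peaks 16 were CpG-island-like, and of the 8 decreased promoter peaks none was. Over all peaks the counts were 25 of 150 increased (16.7%) and 0 of 67 decreased, which allows up to 4.48%, beside 0.636% of genome tiles. The share was 41.8% in start-site windows, which are 500 bp long and centred on the outermost start of each protein-coding gene. Promoter peaks are unlike these windows in that their start site may be an alternative one within the gene, as for several decreased peaks named below. Peaks that were multicopy or CpG-island-like within 1000 bp of a start site numbered 96 of the 150 increased peaks (64%) and none of the decreased peaks. The same share was 14.3% of genome tiles and 47.7% of start-site windows. In the male list it was 22.5% of increased and 67.5% of decreased peaks.

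The increased promoter peaks with the smallest distances were at Polr3d, a subunit of RNA polymerase III, with the peak middle 16 bp upstream of the start site, and at the zinc finger gene Zfp936, 52 bp upstream. Distances are given from the peak middle to the nearest start site of any coding transcript. At Zfp936 that site lay within the gene and the peak middle in an intron of it. At Bdnf, which encodes a neurotrophin, the middle was 64 bp downstream, at the orphan receptor gene Gpr160 it was 71 bp downstream and at the claudin gene Cldn23 81 bp downstream. The splicing regulator gene Rbfox1 had its peak 89 bp downstream of a start site, Sfi1 94 bp downstream and the kinase gene Limk2 101 bp upstream. Bdnf and Rbfox1 are known mainly for roles in neurons. At Tamm41, which encodes the mitochondrial enzyme that makes CDP-diacylglycerol for cardiolipin, the middle was 112 bp downstream and within coding sequence. At Dazl, which encodes an RNA-binding protein of germ cells, it was 156 bp downstream. Of the peaks named so far in this group, those at Zfp936 and Rbfox1 were not CpG-island-like. The GC content of the CpG-island-like peaks was high, for example 67% at Bdnf, 69.6% at Gpr160 and 71.2% at Tbc1d30, whose peak middle lay 162 bp downstream. Ddit4l, an inhibitor of mTOR signalling, had a peak 177 bp downstream of its start site with a GC content of 65.6%, and Necab2, a neuronal calcium-binding protein, 1 upstream by 208 bp that was GC-rich (63.0%) but not CpG-island-like. The peak 129 bp upstream of Eif1ad7 was multicopy, with 76.8% of its 31-mers repeated.

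The decreased promoter peaks lay at 8 genes, among them a cytochrome P450 and a metallothionein. At Retreg1, Slc2a9, Etfbkmt, Ocln and Il1rn the start site was an alternative one within the gene, and the peak middle lay in an intron of that gene. At Retreg1, a receptor for autophagy of the endoplasmic reticulum, 1 peak middle lay 12 bp upstream of a start site and another 2700 bp downstream. At Slc2a9, the urate transporter, the middle was 38 bp upstream, at the methyltransferase gene Etfbkmt 70 bp downstream, and at Ocln, which encodes the tight junction protein occludin, 92 bp upstream. Cyp2e1, a major cytochrome P450 of the liver, had a decreased peak 129 bp upstream of its start site and another 15.1 kb upstream. At Il1rn, the interleukin 1 receptor antagonist, the middle was 266 bp upstream, at the metallothionein gene Mt2 705 bp upstream, and at Cobll1 738 bp downstream. The GC content of decreased peaks ran from 33.2% to 62.8% with a median of 47.6%, and they held between 1 and 27 CG dinucleotides, against 30.6% to 73.2%, a median of 51.9% and 0 to 71 CG dinucleotides in the increased peaks.

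The decreased peaks included the neighbourhoods of several genes that glucocorticoids induce. Of the 25 genes in a list of glucocorticoid targets, 6 (24%) were the nearest protein-coding gene of a decreased peak and 0 of an increased peak, whereas 0.287% of all 21603 protein-coding genes were nearest a decreased peak and 0.569% nearest an increased peak. The glucocorticoid list was drawn up with earlier results of these data known, so its count is a description. A list of 10 hepatocyte markers, which also holds Tat, had 3 genes nearest a decreased peak (30%). Among the 6 glucocorticoid targets, Fkbp5, a co-chaperone of the receptor, had its peak in an intron, 1.55 kb upstream of a start site within the gene. Mt2 had its peak 705 bp upstream, and Igfbp1, an insulin-like growth factor binding protein, 5.96 kb downstream of the start site. The others were Tat, tyrosine aminotransferase, at 9.74 kb downstream, and the transcription factor genes Klf9, at 72.0 kb upstream, and Zbtb16, at 110 kb downstream. All 6 were listed in the female RNA table. Their levels, as the authors' mean normalized count over the 6 female RNA-seq livers of both genotypes divided by exon length in kb, were 192 for Fkbp5, 248 for Zbtb16, 658 for Klf9, 2380 for Mt2, 2577 for Igfbp1 and 16185 for Tat. The peaks near Mt2 and Zbtb16 contained the long form of the GRE and that near Fkbp5 the core, while those near Igfbp1, Tat and Klf9 contained neither within their 500 bp.

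Across the decreased set the GRE core ACANNNTGT, searched on both strands, was present in 26 of 67 peaks (38.8%, 28 to 50.8). It was present in 17 of 150 increased peaks (11.3%, 7.20 to 17.4) and in 16.0% of genome tiles. The long form, every match of which is also a core match, was found in 7 decreased peaks (10.4%), 3 increased peaks (2.00%) and 0.289% of genome tiles. The 3 increased peaks with the long form were nearest Sfi1, 5730507C01Rik and Eif1ad7, and all 3 were multicopy. In the decreased peaks shown above the middle of the long form lay between 49 and 202 bp from the peak middle. A match describes letters and not binding.

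Several other motifs were also more frequent in decreased than in increased peaks. The forkhead motif TGTTTAC, bound by FOXA factors, was in 20.9% of decreased peaks (14 of 67), 2.67% of increased peaks (4 of 150) and 7.21% of genome tiles. The C/EBP motif TTGCNNAA was in 35.8%, 10% and 21.6%, and the nuclear receptor motif AGGTCA in 49.3%, 20.7% and 25.1%. The ONECUT motif ATTGATT was in 8.96% of decreased peaks and 8.46% of tiles, which is nearly the same share, and in 0.667% of increased peaks. The increased share was below that of genome tiles for each of these motifs. It was also low among the increased peaks that were not multicopy, where 2.86% contained the forkhead motif, 8.57% the C/EBP motif and 8.57% the GRE core. The E-box CACGTG was in 16.4% of decreased peaks, 6.67% of increased peaks and 4.84% of tiles, so both sets lay above the tiles, and the SOX motif ACAAAG in 53.7%, 29.3% and 39.5%. In the 102 increased peaks of the male list AGGTCA was in 42.2% and the ONECUT motif in 9.80%. The C/EBP motif was in 23.5% of them, the GRE core in 13.7% and the forkhead motif in 1.96%. Tiles were placed without regard to accessibility, so they do not stand for other open liver chromatin.

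Several motifs differed less. The MEIS motif TGACAG was in 31.3% of decreased peaks, 27.3% of increased peaks and 28.5% of genome tiles, and the estrogen receptor core TCANNNTGA in 13.4%, 13.3% and 18.1%. The GC box GGGCGGG, a site of SP and KLF factors, was in 7.46% of decreased peaks, 10% of increased peaks and 2.35% of tiles, below the 34.8% of start-site windows. The ETS motif CCGGAAGT was found in 0 of the 150 increased peaks, which allows up to 2%, and in 0 of the 67 decreased peaks. It was in 0.234% of genome tiles and 5.24% of start-site windows, so for peaks mostly away from start sites these counts say little. Some motifs were more frequent in increased peaks, on small counts. The NFY motif CCAATCA was in 10 of 150 increased peaks (6.67%), 1 of 67 decreased peaks (1.49%) and 6.18% of tiles. The YY1 motif CAAGATGGC was in 4.67%, 1.49% and 1.04%, and the CTCF motif in 2%, 0% and 0.133%. Base composition differed between the sets, which alone moves the chance of any short motif, and its part in these shares was not tested.

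**Figure D4:**
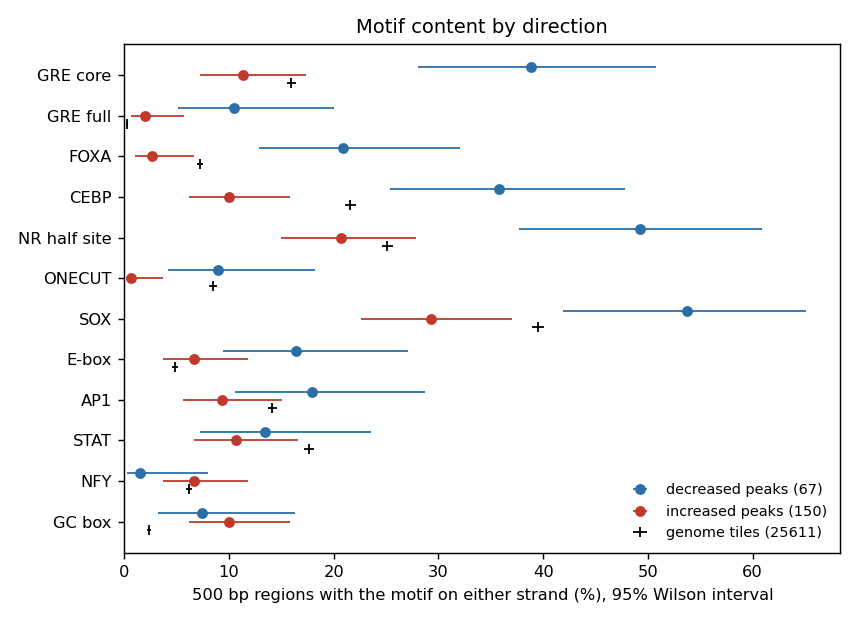
Share of regions, in percent, that contain each of 12 motifs on either strand, for the 67 decreased peaks, the 150 increased peaks and 25611 genome tiles, with 95% Wilson intervals as bars. The GRE core, long GRE, FOXA, C/EBP and nuclear receptor motif are highest in the decreased peaks (38.8%, 10.4%, 20.9%, 35.8% and 49.3%), whereas the increased peaks lie at or below the tiles for the forkhead and C/EBP motifs.

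Metabolic genes near decreased peaks belonged to several pathways. Alas1, which catalyses the first step of heme synthesis, was the nearest gene of 2 decreased peaks. They lay 5.09 kb upstream of 1 start site and 7.29 kb downstream of a different, internal one, the latter peak being past the end of the gene. Cyp7a1, the rate-limiting enzyme of bile acid synthesis, had a peak 12.9 kb downstream and Akr1d1, the 5β-reductase of the same pathway, 1 at 87.6 kb downstream, which made 2 of 34 genes in the bile acid list (5.88%), beside 0.287% of all protein-coding genes. Irs2, an adaptor of the insulin receptor, was nearest to 2 decreased peaks, both in non-coding genes and over 100 kb downstream. With Igfbp1 it gave 2 of 29 genes (6.90%) in the glucose and insulin list, beside the same 0.287%. That share is over all protein-coding genes and does not stand for genes active in liver. Of the genes nearest decreased peaks 91.9% were in the female RNA table, and the list of hepatocyte markers reached 30%. The bile acid and glucose lists were also chosen with earlier results known, so their counts are descriptions. Lpin1, a phosphatidate phosphatase, had an intronic peak 15.6 kb downstream of a start site. Arhgap18 was the remaining gene with 2 decreased peaks, at 27.5 and 33.7 kb downstream.

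Alb was the only gene nearest to peaks of both directions. The increased peak, chr5:90608337-90608836, covered its promoter, and its middle lay 60 bp upstream of the first annotated start site and 162 bp upstream of the start site that 20 of its 23 coding transcripts use. It was not multicopy (0 repeated 31-mers). The Albumin-Cre transgene carries albumin regulatory sequence. By the genotype labels Cre had acted in Midn-T livers alone, so Cre activity goes with genotype here. Reads from the transgene and from the endogenous promoter cannot be told apart in this list. The decreased Alb peak lay 35.7 kb upstream, in a non-coding gene, and is the one with the long GRE shown above. Alb had the highest RNA level of all protein-coding genes, with a mean normalized count per kb of 457261.

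The genes nearest decreased peaks appeared in the female RNA table more often than those nearest increased peaks. It listed 57 of the 62 genes nearest decreased peaks (91.9%), 60 of the 123 nearest increased peaks (48.8%) and 63.0% of all protein-coding genes. Among listed genes the median level per kb was 192 for genes nearest decreased peaks, 37.2 for genes nearest increased peaks and 71.4 for all. As a percentile of all listed protein-coding genes the medians were 74.7 and 34.8. The values pool both genotypes and therefore describe how active a gene was in these livers and not how it changed. Near multicopy increased peaks 25 of 67 genes (37.3%) were listed. Near increased peaks that were not multicopy 38 of 64 were (59.4%), close to the 63.0% of all protein-coding genes, with a median percentile of 34.3 among those listed. Near increased CpG-island-like promoters 14 of 16 genes were listed, at a median level of 18.4 and a median percentile of 23.0, for example 4.28 for Bdnf and 3.19 for Gpr160, while Dazl and Cldn23 were absent from the table. For comparison Cyp2e1 had 64651, Alas1 1975 and Cyp7a1 1704.

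**Figure D5:**
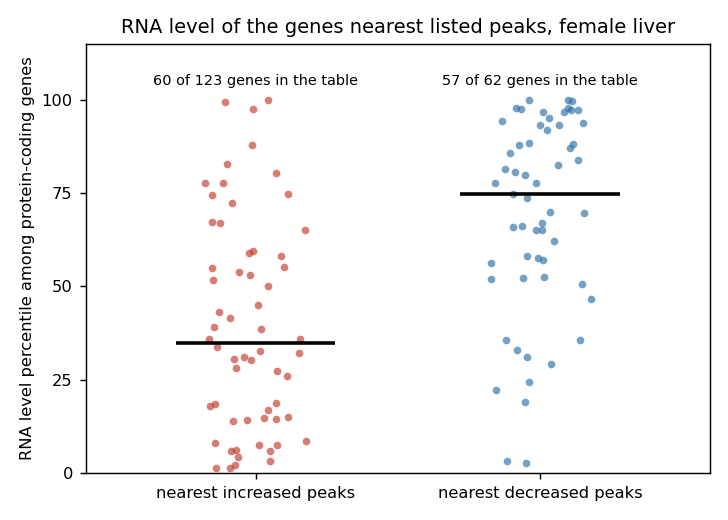
RNA level of the genes nearest listed peaks as a percentile among the protein-coding genes of the female RNA table, 1 point a gene, with the median as a black line. Points for decreased peaks gather in the upper range (median 74.7, 57 of 62 genes in the table), and points for increased peaks spread over the whole range (median 34.8, 60 of 123 genes).

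The RNA table showed the markers of the labelled tissue. All 10 hepatocyte markers were listed, between 16185 and 457261 per kb. Levels reached at most 1309 for the 15 Kupffer cell and leukocyte markers, 322 for the 10 stellate and fibroblast markers, 566 for the 10 sinusoidal endothelial markers and 299 for the 8 cholangiocyte markers. Of the 10 hepatocyte markers 3 (30%), Alb, Cyp2e1 and Tat, were nearest to decreased peaks and 1 (10%), Alb, to an increased peak. The shares over all protein-coding genes were 0.287% and 0.569%. None of the markers of the other cell types was nearest to a listed peak, but at the genome's share lists of this size would hold under 1 such gene, so this says little. In nuclei from whole liver, fewer nuclei of a type and less accessibility per nucleus cannot be told apart.

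Other gene lists had 0 to 2 members near the peaks. With 0.569% of all protein-coding genes nearest an increased peak and 0.287% nearest a decreased one, lists of this size would hold under 1 such gene at the genome's share, so a count of 0 or 1 says little about a list. Midn itself lay 11.0 Mb from the nearest of the 10 listed peaks on chromosome 10, and 0 of 20 genes in the list of midnolin and its known substrates were nearest to a peak. None of the 23 clock genes, the 36 fatty acid oxidation and PPARA target genes and the 29 cholesterol genes was nearest to one. Of 30 plasma protein genes Alb alone was nearest to peaks. Of 30 acute phase genes C4b was nearest to an increased peak and Mt2 to a decreased one. Of 78 cytochrome P450 and phase II genes Cyp3a41b, which is expressed mainly in female liver, was nearest to an increased peak and Cyp2e1 to decreased ones. Cyp3a41b was also the 1 gene of 52 in the list of sex-biased liver genes, and its peak, 47.7 kb downstream, was multicopy. Of 34 lipid synthesis and storage genes Tamm41 was nearest to an increased peak and Lpin1 to a decreased one. Of 56 hepatocyte transcription factors and nuclear receptors, Hnf4g and Klf9 were named in the same order. The Hnf4g peak was intergenic, 554 kb upstream and within the first 1 Mb of its chromosome. Of 32 amino acid and urea genes Tat was nearest to a decreased peak. Of 20 zinc finger genes Zfp825 was nearest to an increased peak, which was multicopy. That list does not hold all zinc finger genes. Outside it, Zfp978, Zfp936, Zfp202, Zfp652, Zfp386 and Zfp943 were nearest to increased peaks and Zfp407 to a decreased one.

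The female and male lists had no peak in common. The male list, chosen at a raw P below 0.05 and so under a weaker criterion, held 102 increased and 77 decreased peaks, and 0 of the 217 female and 0 of the 179 male peaks shared a base with the other list. The size of the peak set from which both were drawn is not known here, and short lists from a large set can share none whatever their relation. With peak middles allowed to lie up to 10 kb apart, 2 female peaks had a male neighbour. At Ocln a decreased peak lay 8158 bp from a male decreased peak, and at Dnah7c an increased peak lay 6576 bp from a male decreased peak. Multicopy peaks made up 1 of the 102 male increased peaks and 7 of the 77 male decreased peaks, against 80 of 150 and 0 of 67 in females. CpG-island-like sequence was found in 67.5% of male decreased peaks and 24.5% of male increased peaks, against 0 of 67 and 16.7% in females. The lists were made under different thresholds from different libraries, and no test of a difference between the sexes can be made from them.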

How the data were processed

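Nuclei of frozen liver from 2 WT and 2 Midn-T female mice were profiled by ATAC-seq. The study's methods describe alignment against GRCm39 using STAR (2.7 in the submitters' processing notes) and removal of duplicates. The authors then identified peaks with MACS2, merged the peaks of all samples, counted reads with featureCounts in windows of 500 bp and tested them with edgeR after TMM normalization. How reads with several alignments were treated in the ATAC-seq data is not given in the sources used here. The deposited lists hold positions (as other numbers, not counts, with starts counted from 0 and printed here from 1) and the direction of change. The deposited female RNA table holds the authors' mean normalized count per gene, a signal scaled by DESeq2 size factors over 6 livers. Its fold changes and p-values were not used, nor was the male RNA table. The lists held 0 per-sample columns.

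Peak middles were assigned to the nearest protein-coding start site of GENCODE vM39 with Python 3.11.15, pandas 2.3.3 and pyfaidx 0.9.0.4. Exact 31-mer copies were counted over the whole assembly, including unplaced sequence. The peaks, 25 motifs and 20 gene lists were chosen with earlier results of these data known. The k-mer and motif searches were tested on simulated sequence. Named genes were those nearest peaks within 1000 bp of a start site, with 2 or more peaks, or in a gene list, at most 15 a rule and direction by distance, with Midn and Alb. Genes named for the long GRE, a copy number, shared sequence, a position on chromosome X or a male neighbour were chosen after their values were seen, as was Or1f19. Shares carry 95% Wilson intervals, a share of 0 carries the limit that 3 counts would give, and no test was applied.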

Additional observations from a re-analysis of the deposited data

How the results depend on the processing

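The increased share of peaks was 51.1% without multicopy peaks and 68.8% with peaks within 10 kb merged, against 69.1%. With start sites of all annotated genes, 25.3% of increased and 28.4% of decreased peaks lay within 1000 bp, and the median distances were 6.48 and 2.7 kb. Limits of 500 or 2500 bp left both promoter shares within their intervals. In the central 200 bp of the peaks, which hold fewer bases, the shares for decreased and increased peaks were 20.9% and 5.33% for the GRE core, 4.48% and 0% for the long GRE, 10.4% and 0.667% for the forkhead motif, 20.9% and 4% for C/EBP, and 22.4% and 9.33% for the nuclear receptor motif. None of the 70 increased peaks that were not multicopy held the long GRE (0%). The multicopy share of increased peaks was 61.3% with 24-mers, 12.7% with over 90% of 31-mers repeated and 8% with windows of 150 bases, an alternative chosen after seeing the data, as were the motif shares, distances and RNA levels without multicopy increased peaks. It was 0% for decreased peaks in each. Overlap with the male list rose from 0 to 2 peaks for middles within 10 kb. Assignment by gene body kept the gene of 143 of 150 increased and 64 of 67 decreased peaks and left 6 glucocorticoid targets near decreased peaks. The reference is not soft-masked, so the repeat-masked share was not run. No paired analysis was possible because the list holds no value per liver, and for the same reason no liver could be left out. Depth is unknown.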
